A study of Mus musculus with 3 samples.

Results

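Endothelial cells of the wild-type mouse kidney at E14.5, mid-gestation, were divided by whether a cell held transcripts of at least 1 of 4 genes known from arterial endothelium, Gja4, Gja5, Sox17 and Hey1. Single-cell counts came from 3 libraries, 1 each from Drop-seq, 10X Chromium and Fluidigm C1, all from kidney of a mixed background that the labels describe as mostly CD-1 with 129. Drop-seq and 10X capture cells in droplets and count molecules by unique molecular identifiers (UMIs), while the Fluidigm values are sequencing reads of cells caught on a chip. Each platform gave 1 library here, and the labels name no animal, so the spread between libraries is also the spread between platforms. A cell was taken as endothelial if it had 500 or more detected genes, 3 or more of Pecam1, Kdr, Plvap, Emcn, Egfl7, Fabp4, Tmem88 and Gimap4, and neither of the leukocyte genes Ptprc and Tyrobp. A gene was detected at 1 UMI, or at 20 reads in Fluidigm. By this rule 453 of 2295 cells in 10X were endothelial, of which 266 were marked and 187 unmarked. The numbers were 54 marked and 72 unmarked of 2000 cells in Drop-seq, and 25 marked and 52 unmarked of 894 in Fluidigm.

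Arteries, veins and capillaries are lined by endothelial cells that differ in their transcripts from early stages on. Arterial identity is known to rest on VEGF signalling through KDR and its co-receptor NRP1, which acts upstream of Notch signalling, with DLL4 as ligand, NOTCH1 and NOTCH4 as receptors and HEY factors as targets. SOX17 is a transcription factor required for arterial differentiation, and GJA4 and GJA5 are the connexins that couple arterial endothelial cells. Vein identity depends on the nuclear receptor NR2F2, and veins carry the receptor EPHB4 where arteries carry its ligand EFNB2. At this stage the kidney's vessels are still being laid down among stroma and forming nephrons.

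The promoters of genes on which the comparison turns are shown because Notch signalling acts through the DNA-binding protein RBPJ and arterial specification through SOX factors. Each runs 5′ to 3′ on the gene's strand, from 250 bases before to 50 after the start of the RefSeq transcript, build GRCm38.p6, the assembly called mm10. Capitals mark the RBPJ core TGGGAA or its reverse complement TTCCCA, which 25.6% of all 32851 promoters of this length hold. Gja4 and Dll4 hold no such core in this window, whereas Depp1, listed in the count tables under its older name 8430408G22Rik, and Prdm1 hold 1 each.
Gja4, chr4:127313990-127314289, minus strand: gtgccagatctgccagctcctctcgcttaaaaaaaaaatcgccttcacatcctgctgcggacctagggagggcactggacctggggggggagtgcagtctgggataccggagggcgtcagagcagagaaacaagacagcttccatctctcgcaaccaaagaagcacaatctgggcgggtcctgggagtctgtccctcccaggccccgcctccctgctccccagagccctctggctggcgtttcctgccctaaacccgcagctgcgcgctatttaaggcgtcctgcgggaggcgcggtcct
Dll4, chr2:119325534-119325833, plus strand: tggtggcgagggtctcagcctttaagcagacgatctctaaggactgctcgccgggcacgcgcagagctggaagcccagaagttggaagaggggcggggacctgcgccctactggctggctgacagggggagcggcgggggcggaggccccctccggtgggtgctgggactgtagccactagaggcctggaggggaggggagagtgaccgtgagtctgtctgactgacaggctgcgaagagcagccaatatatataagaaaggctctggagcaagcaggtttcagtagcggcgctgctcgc
Depp1, chr6:116650434-116650733, plus strand: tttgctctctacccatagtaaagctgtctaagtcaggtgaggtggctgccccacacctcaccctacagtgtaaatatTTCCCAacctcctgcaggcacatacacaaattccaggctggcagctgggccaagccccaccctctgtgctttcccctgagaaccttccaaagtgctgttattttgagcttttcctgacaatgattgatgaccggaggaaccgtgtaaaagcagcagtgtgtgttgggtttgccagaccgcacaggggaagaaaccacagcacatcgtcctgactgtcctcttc
Prdm1, chr10:44458699-44458998, minus strand: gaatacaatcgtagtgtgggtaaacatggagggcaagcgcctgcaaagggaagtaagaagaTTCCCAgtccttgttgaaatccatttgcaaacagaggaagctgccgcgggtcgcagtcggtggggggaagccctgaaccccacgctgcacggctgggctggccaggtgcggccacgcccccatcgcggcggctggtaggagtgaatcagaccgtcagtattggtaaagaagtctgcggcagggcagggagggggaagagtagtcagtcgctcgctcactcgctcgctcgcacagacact
The RBPJ core was found in 7 of the 37 promoters that matched 30 of the 42 genes higher in marked cells, and in 2 of 9 promoters of the 12 genes lower there. The SOX core AACAAT, or ATTGTT on the other strand, is in 10.7% of all promoters. It was found in 0 of the 37 and in 1 of the 9, the promoter of Cavin2.

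Marked cells were chosen by the counts of these 4 genes and endothelial cells by those of the 8, so the values of both sets are a description. Marked cells made up 58.7% of endothelial cells in 10X (95% exact binomial interval 54.0 to 63.3), 42.9% in Drop-seq (34.1 to 52.0) and 32.5% in Fluidigm (22.2 to 44.1), and these intervals cover counting error only. Sox17 set most of the marking: it was detected in 51.2% of endothelial cells in 10X, 34.9% in Drop-seq and 19.5% in Fluidigm. Gja4 was detected in 23.2%, 14.3% and 10.4%, and Gja5, the connexin of larger arteries and the rarest of the 4, in 4.64%, 1.59% and 3.90%. Gja5 was never the only one of the 4, and all 21 Gja5 cells of 10X also held Gja4 and Sox17. Hey1 was found in 18.1%, 11.9% and 15.6% of endothelial cells.

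Cells with none of the 8 endothelial genes show how specific each gene was. In them Hey1 was detected in 18.5% of 1227 cells in Drop-seq, 13.1% of 964 in 10X and 12.2% of 615 in Fluidigm, close to its share in endothelial cells, so Hey1 did not separate endothelial from other cells here. Sox17, Gja4 and Gja5 were each detected in under 0.5% of these cells in every library. Their median total was 6851 UMIs in Drop-seq and 6293.5 in 10X, and 149336 reads in Fluidigm, below the endothelial medians given further on. Most marked cells held a single gene of the 4: 156 of 266 in 10X, 36 of 54 in Drop-seq and 16 of 25 in Fluidigm. In 10X 130 of these 156 held Sox17 alone, and a further 62 cells held 2 of the genes, 32 held 3 and 16 held all 4. At the edge of the rule, 75 marked cells of 10X and 17 of Drop-seq had a summed count of 1 over the 4 genes, and 19 unmarked Fluidigm cells had reads of a gene below the detection limit.

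**Figure D1:**
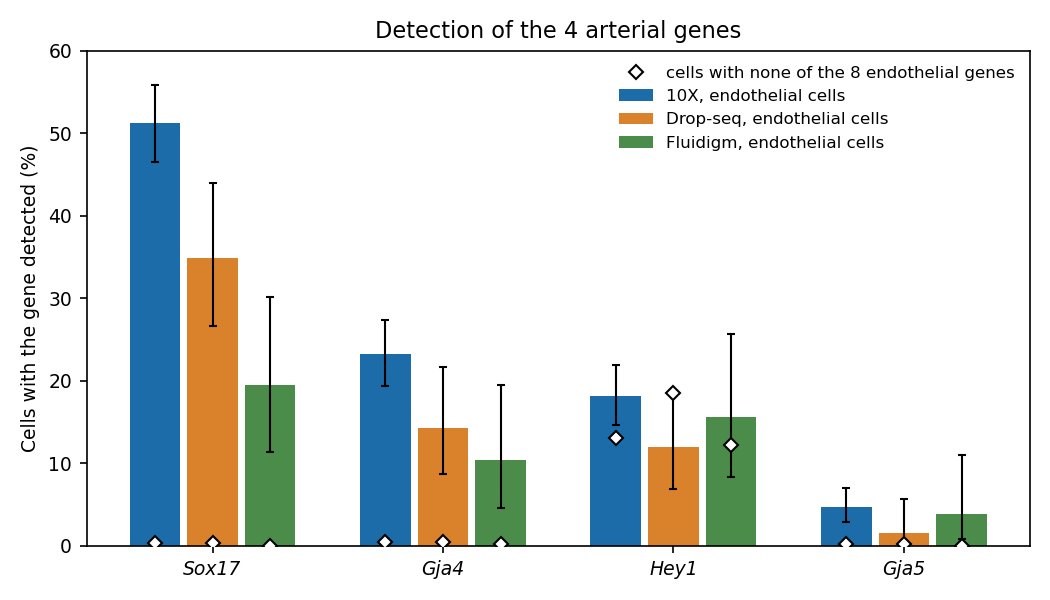
Share of endothelial cells in which each of the 4 arterial genes was detected, in percent, for each library, with exact 95% binomial intervals. Diamonds give the share in cells with none of the 8 endothelial genes, which is near 0 for Sox17, Gja4 and Gja5 and between 12.2% and 18.5% for Hey1.

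Marked and unmarked cells were of similar depth in the droplet libraries, with median totals of 8487 and 8433 UMIs in 10X and 7421.5 and 7073 UMIs in Drop-seq. In Fluidigm marked cells were deeper, at 257216 against 218244 reads. For the comparison the 4 genes were removed and each cell was thinned at random to 4000 UMIs, or 50000 reads in Fluidigm, which left out 30 marked and 32 unmarked shallower cells in 10X and 1 marked cell in Fluidigm. Levels below are counts per 1000000 (CPM) of the thinned counts summed over the cells of a group, marked against unmarked. After thinning, marked and unmarked cells held a median of 1731 and 1740 genes in 10X and 1855 and 1863.5 in Drop-seq. In Fluidigm these medians were 4596 and 4114, so marked cells there still held more genes. No cell barcode was shared between libraries.

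The 8 endothelial genes also chose the cells and were not tested. Their summed level was 7386 against 4315 CPM in 10X, 5560 against 4076 in Drop-seq and 3189 against 3547 in Fluidigm, so it was higher in marked cells of the droplet libraries and slightly lower in Fluidigm. The capillary gene Plvap, which encodes the diaphragm protein of fenestrae, was lower in marked cells of all 3 libraries, at 483 against 602 CPM in 10X, 301 against 451 in Drop-seq and 147 against 339.6 in Fluidigm. In 10X 34 unmarked but only 7 marked cells held exactly 3 of the 8 genes, just inside the rule, while 131 cells without and 29 with an arterial gene held 2 and fell just outside. Independent endothelial markers, 15 genes such as Cdh5, Ramp2 and Tie1, were all present in both groups of every library, with a summed level of 5106 against 3629 CPM in 10X, 2644 against 2958 in Drop-seq and 2704 against 2627 in Fluidigm.

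Over the 3 libraries, 42 genes were higher and 12 lower in marked cells, which is 0.573% and 0.164% of the 7335 genes tested (edgeR quasi-likelihood test on the 6 sums with library as a block, Benjamini-Hochberg adjusted p under 0.05). All 54 had the same direction in the 3 libraries. The test had 2 residual degrees of freedom, and its calls moved with single libraries: 19 higher and 1 lower without Drop-seq, 20 and 19 without 10X, and 90 and 39 without Fluidigm. Of the 54 genes, 17, 14 and 43 were called again in these 3 fits, and DESeq2 on the same sums called 14 higher and 1 lower. Fold changes below are log2 values of marked over unmarked with their standard error.

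Of 36 arterial genes listed apart from the 4 that chose the cells, 23 could be tested, and 10 were higher and none lower in marked cells. All 23 had a positive fold change, 16 of them in each of the 3 libraries, with a median of 0.85 against -0.01 over all genes tested. The list was drawn up with earlier results of these cells known, so its direction is a description. The 10 were Dll4, Efnb2, Nrp1, Unc5b, Sox7, Igfbp3, Tm4sf1, Tsc22d1, Stmn2 and Depp1. Over 20 other ways of processing, the number of list members higher ranged from 0 to 12 and the median from 0.66 to 1.53.

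Dll4, the arterial Notch ligand, stood at 55.6 against 13.9 CPM in Drop-seq, 57.2 against 6.45 in 10X and 25 against 5.77 in Fluidigm. The marked value was the higher in every library, and in 10X 45 of 236 marked but 4 of 155 unmarked cells held a Dll4 transcript. Its fold change was 2.38 ± 0.48, adjusted p = 0.00405 by edgeR. Efnb2, the arterial ephrin, was likewise above the unmarked level in each library at 129.6 against 34.7 CPM in Drop-seq, 68.9 against 14.52 in 10X and 90.8 against 52.3 in Fluidigm, with a smaller gap in Fluidigm (1.42 ± 0.31, adjusted p = 0.0103, edgeR). Unc5b, a netrin receptor of arterial and sprouting endothelium, stood at 69.4 against 20.8 CPM in Drop-seq, 107 against 32.3 in 10X and 53.3 against 32.7 in Fluidigm (1.26 ± 0.32, adjusted p = 0.0402, edgeR). Nrp1, which binds VEGF and semaphorins, was abundant in both groups and rose less, from 165 to 378 CPM in 10X and from 260.4 to 325 in Fluidigm (0.66 ± 0.16, adjusted p = 0.035, edgeR). Sox7, a transcription factor of the same subfamily as Sox17, stood at 60.2 against 10.4 CPM in Drop-seq, 48.7 against 21 in 10X and 68.3 against 29.2 in Fluidigm (1.42 ± 0.36, adjusted p = 0.0402, edgeR).

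The arterial-list gene with the widest gap was Depp1, known as a target of FOXO factors, on chromosome 6. In 10X it had 119 counts in 41 of 236 marked cells and none in 155 unmarked cells, which is at least 26.1-fold higher when 3 counts over the unmarked group are taken as the limit. In Drop-seq it was again listed at 0 in unmarked cells and stood at 50.9 CPM in marked cells, at least 4.89-fold higher. In Fluidigm it was at 50.8 against 3.85 CPM, but 45 of its 61 marked and all 10 unmarked reads came from 1 cell each, and without the marked cell the level was 13.9. The fitted change was 4.64 ± 0.52, adjusted p = 9.45e-07 by edgeR. Stmn2, a tubulin-binding protein best known from neurons, stood at 13.9 against 3.47 CPM in Drop-seq, 97.5 against 1.61 in 10X and 25.8 against 8.46 in Fluidigm and its 92 counts in marked 10X cells came from 19 cells, while all 22 unmarked Fluidigm reads came from 1 (2.74 ± 0.57, adjusted p = 0.0142, edgeR). Its Drop-seq values rest on 3 against 1 counts. Igfbp3, which binds insulin-like growth factors, differed least in Drop-seq and most in Fluidigm, at 194 against 125 CPM in Drop-seq, 231 against 88.7 in 10X and 182 against 35.8 in Fluidigm (1.58 ± 0.24, adjusted p = 0.00093, edgeR). Tsc22d1 and Tm4sf1 were abundant in both groups and rose by 0.56 ± 0.11 and 0.61 ± 0.15 (edgeR adjusted p = 0.00368 and 0.0338).

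Among arterial genes that did not pass the test, Cxcl12, the chemokine of arterial endothelium that attracts CXCR4-bearing cells, stood at 37 against 20.8 CPM in Drop-seq, 79.4 against 32.3 in 10X and 56.7 against 40.4 in Fluidigm (0.84 ± 0.33, adjusted p = 0.428, edgeR). Vegfc, Mecom and Epas1 had fold changes of 1.56, 1.12 and 1.02 with edgeR adjusted p of 0.256, 0.171 and 0.332, and Vegfc and Epas1 were lower in marked cells of Drop-seq. Clu, which codes for the chaperone clusterin, came close to the threshold (1.39 ± 0.34, adjusted p = 0.0574, edgeR), with 320 against 90.4 CPM in Fluidigm but 11.7 against 17.7 in 10X. Sema3g, an arterial semaphorin, had too few counts for the test. It stood at 24.4 against 1.61 CPM in 10X and 18.5 against 0 in Drop-seq, and was listed at 0 in both groups of Fluidigm.

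**Figure D2:**
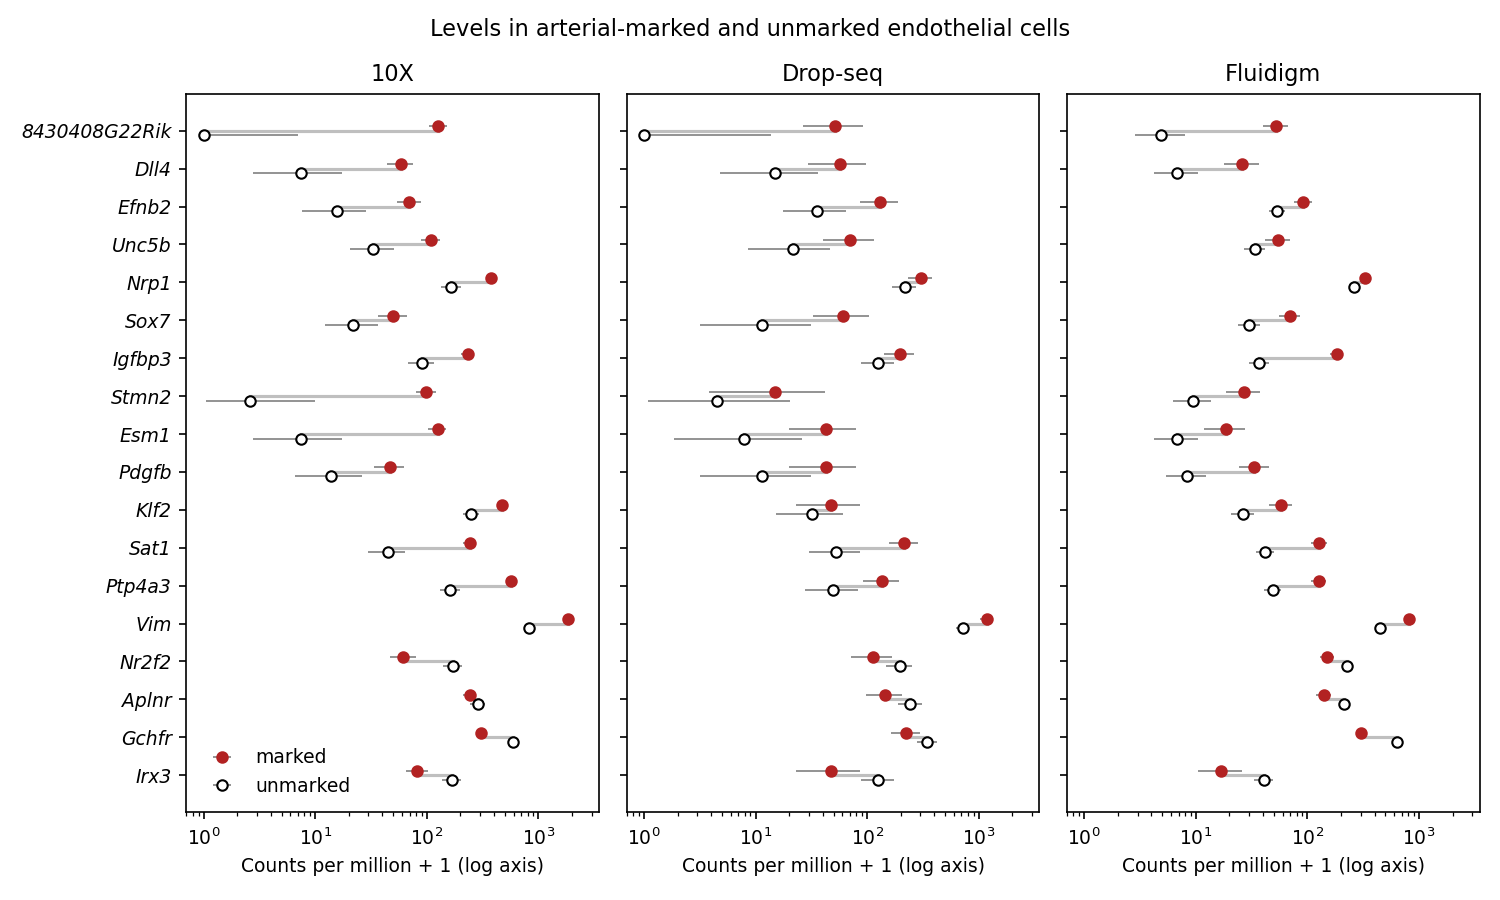
Level of 18 genes in marked (filled) and unmarked (open) endothelial cells of each library, in thinned CPM with 1 added, on a log axis, with exact 95% Poisson intervals that cover counting error only. Dll4, Efnb2, Unc5b and Depp1 (8430408G22Rik) lie higher in marked cells of all 3 panels, and Nr2f2, Gchfr and Irx3 lower.

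Of 16 Notch pathway genes tested, Dll4 alone was higher and none was lower, with a median of 0.41. Of all genes tested, 0.573% were higher and 0.164% lower, and the median was -0.01. The receptor Notch1 was above the unmarked level in each library, at 74.1 against 62.5 CPM in Drop-seq, 103 against 56.5 in 10X and 79.2 against 56.9 in Fluidigm (0.57 ± 0.26, adjusted p = 0.58, edgeR). Notch4 was equal at 13.9 CPM in Drop-seq and differed in 10X, at 38.1 against 16.1, without passing the test (edgeR adjusted p = 0.739). Nrarp, a feedback inhibitor induced by Notch, and Hes1, a target, had fold changes of 1.18 and 0.43 (edgeR adjusted p = 0.307 and 0.58). The ligand Jag1 stood at 13.9 against 20.8 CPM in Drop-seq, 16.9 against 1.61 in 10X and 60 against 37.7 in Fluidigm and did not keep 1 direction, though 5 of its 6 unmarked counts in Drop-seq came from 1 cell, without which that level was 3.52 CPM. Rbpj, the shared effector, was at 0.10 ± 0.39.

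Outside the arterial list, the genes with the smallest adjusted p among the 15 largest rises were Sat1, Ptp4a3 and Rgs2. Sat1, which starts the breakdown of polyamines, stood at 213 against 52.1 CPM in Drop-seq, 240.5 against 43.5 in 10X and 127 against 40.8 in Fluidigm (1.99 ± 0.22, adjusted p = 4.98e-08, edgeR). Ptp4a3, a membrane phosphatase, stood at 134 against 48.6 CPM in Drop-seq, 572 against 161 in 10X and 125 against 48.1 in Fluidigm and was the most abundant of these 3 genes in 10X (1.59 ± 0.18, adjusted p = 1.21e-07, edgeR). Rgs2, which shortens signalling through Gq-coupled receptors, stood at 134 against 34.7 CPM in Drop-seq, 108 against 22.6 in 10X and 98.3 against 31.9 in Fluidigm (1.88 ± 0.28, adjusted p = 4.24e-05, edgeR). Among the 20 other ways of processing, Sat1 passed the threshold in 19, Ptp4a3 in 18, Rgs2 in 16 and Depp1 in 16 of the 18 in which it was tested, and none of the 4 changed direction. Other genes with a large rise passed less often: Dll4 and Igfbp3 in 13 of 20, Esm1 in 13 of 17, Stmn2 in 9 of 18, Trim47 in 8 of 20, Plac1 in 7 of 19, Pdgfb in 6 of 20, Prnp in 5 of 18 and Prdm1 in 4 of 13.

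Signals sent by endothelial cells were also among these genes. Pdgfb, which recruits pericytes and smooth muscle to vessels, stood at 41.7 against 10.4 CPM in Drop-seq, 45.6 against 12.9 in 10X and 32.5 against 7.31 in Fluidigm and was at or above 3 times its unmarked level in each library (1.99 ± 0.46, adjusted p = 0.02, edgeR). Esm1, a proteoglycan of VEGF-stimulated and tip endothelium, had its widest gap in 10X, at 41.7 against 6.94 CPM in Drop-seq, 124 against 6.45 in 10X and 17.5 against 5.77 in Fluidigm (2.71 ± 0.47, adjusted p = 0.00093, edgeR). Transcripts of Esm1 were in 55 of 236 marked and 3 of 155 unmarked 10X cells, whereas in Fluidigm 17 of its 21 marked and 13 of its 15 unmarked reads came from 1 cell each, without which its levels were 3.48 and 0.784 CPM. Prdm1, a transcriptional repressor, was in 17 marked and no unmarked 10X cell and stood at 18.5 against 3.47 CPM in Drop-seq, 22.2 against 0 in 10X and 20 against 3.46 in Fluidigm (2.99 ± 0.74, adjusted p = 0.0343, edgeR). Its Drop-seq counts were only 4 against 1. In Fluidigm 12 of its 24 marked and 7 of its 9 unmarked reads came from 1 cell each, without which its levels were 10.4 and 0.784 CPM. Plac1, Prnp and Trim47 rose by 2.17 ± 0.50, 1.76 ± 0.43 and 1.49 ± 0.38 (edgeR adjusted p = 0.0198, 0.0284 and 0.0377).

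Fxyd2 and Wnt4 also passed, but rest on few cells. Fxyd2, a subunit of the sodium pump in nephron tubules, stood at 32.4 against 13.9 CPM in Drop-seq, 8.47 against 3.23 in 10X and 202 against 8.08 in Fluidigm (3.72 ± 0.57, adjusted p = 0.00093, edgeR). In Fluidigm 161 of its 242 marked reads came from 1 cell, and all 8 marked counts of 10X and 6 of 7 in Drop-seq came from 1 cell each. Wnt4, which starts nephron formation, stood at 9.26 against 3.47 CPM in Drop-seq, 20.1 against 1.61 in 10X and 77.5 against 13.8 in Fluidigm (2.56 ± 0.53, adjusted p = 0.00573, edgeR), with 8 of its 19 marked counts of 10X in 1 cell. Nephron epithelium markers as a list stood at 857 against 598 CPM in Fluidigm, 1079 against 778 in Drop-seq and 263 against 324 in 10X. That list holds Fxyd2 itself, at 202 against 8.08 CPM in Fluidigm, so it is not independent of that gene. It also holds the arterial-list gene Jag1 and the cell cycle gene Ccnd1. The part of nephron epithelium in these 2 results was not tested.

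Further genes past the threshold, named after their values were seen, were the intermediate filament gene Vim at 1176 against 719 CPM in Drop-seq, 1852 against 815 in 10X and 811 against 444 in Fluidigm (0.93 ± 0.09, adjusted p = 1.41e-08, edgeR) and Cav1, the coat protein of caveolae, at 120.4 against 93.8 CPM in Drop-seq, 201 against 59.7 in 10X and 200 against 87.3 in Fluidigm (1.21 ± 0.21, adjusted p = 0.0011, edgeR). The transcription factor Ets1 rose by 1.08 ± 0.24 and Lmo2, a cofactor of endothelial and blood transcription factors, by 0.89 ± 0.19 (edgeR adjusted p = 0.0141 and 0.00573). Klf2, a transcription factor induced by blood flow, was the 1 gene of 12 flow and vasomotor genes to pass, at 46.3 against 31.2 CPM in Drop-seq, 474 against 250 in 10X and 56.7 against 25.4 in Fluidigm (0.98 ± 0.20, adjusted p = 0.00573, edgeR). Over all genes tested 0.736% passed. Nos3, the endothelial nitric oxide synthase, was above the unmarked level in each library but did not pass (0.63 ± 0.42, adjusted p = 0.795, edgeR). Klf4 did not pass either, at 0.81 ± 0.50.

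**Figure D3:**
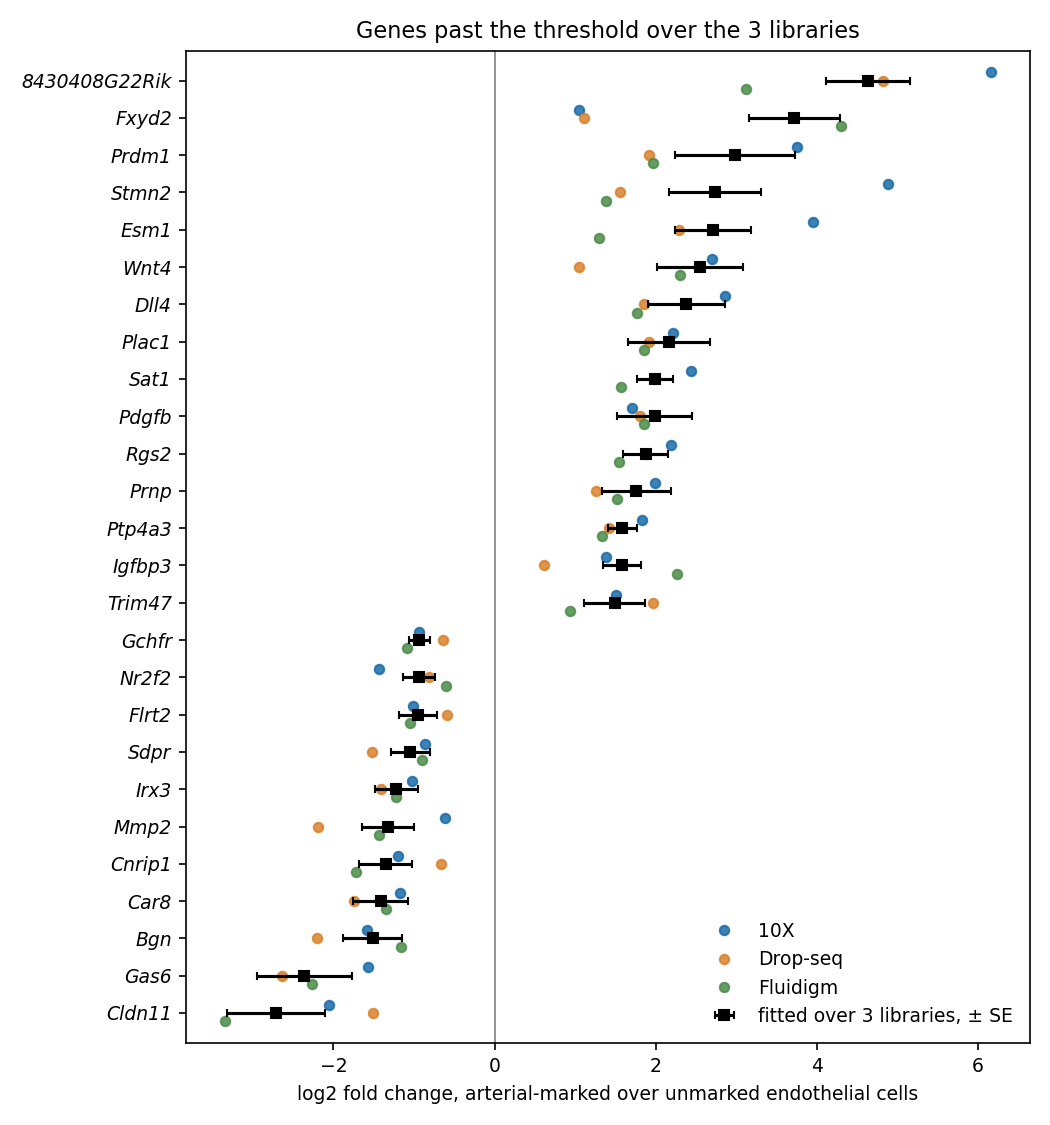
Log2 fold change of marked over unmarked endothelial cells for the 15 genes with the largest rise past the threshold and for 11 of the 12 that were lower, fitted over 3 libraries (squares, ± standard error) and in each library (circles). All 26 genes shown lie on 1 side of 0 in the 3 libraries, with Stmn2 and Fxyd2 the most spread.

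Of 7 venous and lymphatic genes that could be tested, Nr2f2 alone was lower and none was higher, with a median of -0.49. Over all genes tested 0.164% were lower and 0.573% higher, with a median of -0.01. Nr2f2, the regulator of vein identity, stood at 111 against 194 CPM in Drop-seq, 60.4 against 169 in 10X and 149 against 227 in Fluidigm (-0.94 ± 0.19, adjusted p = 0.00573, edgeR). In 10X its transcripts were in 39 of 236 marked and 70 of 155 unmarked cells. Aplnr, the apelin receptor of venous and growing endothelium, was lower in each library without passing, at 144 against 243 CPM in Drop-seq, 242 against 284 in 10X and 139 against 210 in Fluidigm (-0.49 ± 0.17, adjusted p = 0.267, edgeR). Nrp2 and Ephb4 were also lower in each library, by -0.85 ± 0.32 and -0.40 ± 0.29 (edgeR adjusted p = 0.385 and 0.826), and Flt4, the receptor of lymphatic growth, was not (0.16 ± 0.31). The lymphatic regulators Prox1 and Lyve1 had too few counts to test.

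The lower gene with the smallest adjusted p was Gchfr, which restrains the synthesis of the nitric oxide synthase cofactor tetrahydrobiopterin. It stood at 222 against 344 CPM in Drop-seq, 307 against 597 in 10X and 299 against 632 in Fluidigm (-0.94 ± 0.13, adjusted p = 9.83e-06, edgeR), and passed the threshold in 17 of 20 other ways of processing. The other lower genes passed less often: Irx3 in 11 of 20, Nr2f2, Bgn and Sdpr in 8 of 20, Car8, Flrt2 and Mmp2 in 7 of 20, Cldn11 in 5 of 18, Gas6 in 4 of 17 and Cnrip1 in 4 of 20. Irx3, an Iroquois transcription factor, stood at 46.3 against 125 CPM in Drop-seq, 80.5 against 168 in 10X and 15.8 against 39.6 in Fluidigm (-1.22 ± 0.27, adjusted p = 0.00978, edgeR). Car8, a carbonic anhydrase relative without enzyme activity, stood at 18.5 against 66 CPM in Drop-seq, 35 against 82.3 in 10X and 17.5 against 47.7 in Fluidigm, and Flrt2, a ligand of UNC5 receptors, at 88 against 132 CPM in Drop-seq, 51.9 against 108 in 10X and 51.7 against 108 in Fluidigm. Their fold changes were -1.41 ± 0.34, adjusted p = 0.0247, and -0.95 ± 0.24, adjusted p = 0.0377, both by edgeR. Sdpr, now called Cavin2, is a caveolar coat protein and was lower where Cav1 was higher, at 60.2 against 174 CPM in Drop-seq, 65.7 against 123 in 10X and 45.8 against 86.9 in Fluidigm (-1.05 ± 0.24, adjusted p = 0.0162, edgeR). Cnrip1, which binds the cannabinoid receptor, had a fold change of -1.35 ± 0.33 (edgeR adjusted p = 0.0272).

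Other lower genes code for secreted or junctional proteins. Bgn, a small matrix proteoglycan, stood at 4.63 against 27.8 CPM in Drop-seq, 25.4 against 80.6 in 10X and 24.2 against 56.5 in Fluidigm (-1.51 ± 0.37, adjusted p = 0.0281, edgeR). Gas6, the ligand of TAM receptors, stood at 4.63 against 38.2 CPM in Drop-seq, 14.8 against 48.4 in 10X and 0.833 against 12.3 in Fluidigm, and Cldn11, a tight junction protein, at 18.5 against 55.6 CPM in Drop-seq, 7.42 against 37.1 in 10X and 0 against 20 in Fluidigm, where no read came from a marked Fluidigm cell. Mmp2, a matrix metalloproteinase, stood at 9.26 against 48.6 CPM in Drop-seq, 19.1 against 30.6 in 10X and 64.2 against 176 in Fluidigm. The edgeR adjusted p was 0.0348 for Gas6, 0.0162 for Cldn11 and 0.0247 for Mmp2.

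Markers of stroma were also lower in marked cells, with the widest gap in 10X, and their link to these lower genes was not tested. The 10 stromal markers summed to 99.6 against 682 CPM in 10X, 287 against 476 in Drop-seq and 623 against 688 in Fluidigm, all 10 had counts in unmarked cells of each library, and in marked cells Lum was at 0 in Drop-seq and Tbx18 in 10X. The 10 mural and smooth muscle markers summed to 21.2 against 106 CPM in 10X, 23.1 against 48.6 in Drop-seq and 142 against 131 in Fluidigm, with Cnn1 and Ren1 at 0 in both groups of 10X and Fluidigm. Of the 10 genes with the lowest ratio in 10X, 6 are on these lists: Acta2 at 3.18 against 50 CPM, Dlk1 at 6.36 against 74.2, Col1a2 at 11.7 against 116, Col1a1 at 18.0 against 155, Foxd1 at 4.24 against 32.3 and Dcn at 5.3 against 35.5. The other 4 were Plac8 at 3.18 against 32.3 CPM, Dkk1 at 3.18 against 30.6, Crabp1 at 6.36 against 50 and Mfap4 at 6.36 against 46.8. None of the 10 passed over the 3 libraries, where Foxd1 and Dkk1 had too few counts for the test, and several went the other way elsewhere. In Fluidigm Acta2 was at 69.2 against 22.7 CPM, Col1a1 at 84.2 against 43.8, Crabp1 at 91.7 against 43.8 and Dlk1 at 10 against 4.23, and in Drop-seq Col1a2 was at 88 against 69.4, Dkk1 at 9.26 against 6.94 and Plac8 at 74.1 against 10.4. However, 14 of the 16 marked Plac8 counts in Drop-seq came from 1 cell, without which the marked level was 9.43 CPM. Dkk1 had only 2 counts in each group of Drop-seq. Foxd1 stood at 9.26 against 6.94 CPM in Drop-seq, on 2 counts in each group. In Fluidigm it was at 8.33 against 5.77 CPM, on 10 against 15 reads. These counts are too few to give a direction.

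When cells with 3 or more markers of any other type were left out, 214 marked and 111 unmarked cells stayed in 10X, but only 10 and 10 in Drop-seq and 12 and 22 in Fluidigm. The test then called 4 genes higher and 2 lower, among them Vim, Sat1, Ptp4a3 and Gchfr of the 54, and 44 of the 45 genes of the 54 that could still be tested kept their direction. In 10X alone the log2 ratio of Nr2f2 went from -1.47 to -1.03, of Gchfr from -0.95 to -1.002, of Irx3 from -1.05 to -1.78 and of Car8 from -1.21 to -1.76. Other lower genes moved towards 0: Cldn11 from -2.19 to -0.36, Gas6 from -1.65 to -0.75, Bgn from -1.63 to -1.10 and Cnrip1 from -1.23 to -0.84. Flrt2 went from -1.05 to -1.17, Sdpr from -0.89 to -1.25 and Mmp2 from -0.68 to -1.36. That of Col1a1 went from -3.03 to 0.17, on 12 against 5 counts. The ratio of Foxd1, a stromal transcription factor, went from -2.67 to 0.64, on 2 against 0 counts. Both genes are on the stromal list by which cells were left out, so a loss of their difference was built into this setting. Among the higher genes, the ratio of Depp1 (8430408G22Rik) went from 6.30 to 5.71, of Stmn2 from 4.94 to 5.43, of Esm1 from 3.96 to 2.85 and of Dll4 from 2.86 to 1.67. Sat1 went from 2.42 to 2.41 and Ptp4a3 from 1.82 to 1.89. Klf2 went from 0.92 to 0.47, Cd34 from 0.95 to 0.50 and Wnt4 from 2.72 to 0.79, the last on 9 against 2 counts. Fxyd2, itself on the nephron list by which cells were left out, went from 0.98 to 0.06, on 1 against 0 counts.

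**Figure D4:**
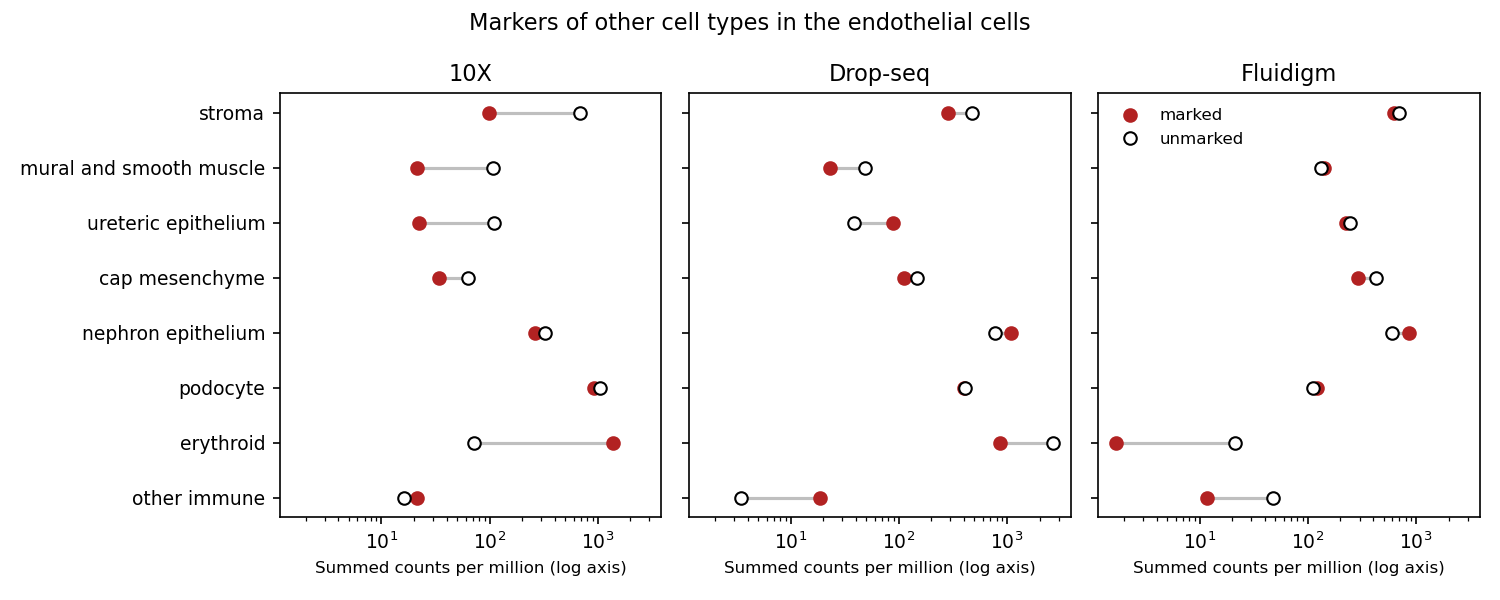
Summed level of markers of other cell types in marked (filled) and unmarked (open) endothelial cells of each library, in thinned CPM on a log axis. Stromal markers lie lower in marked cells by the widest gap in 10X (99.6 against 682), and erythroid markers differ in opposite directions in 10X and Drop-seq, where 1 marked 10X cell held 1248 counts of them and 1 unmarked Drop-seq cell 503. The podocyte list holds Cldn5 and Podxl, which endothelial cells also express.

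In the remaining lists few genes passed, and over all genes tested 0.736% passed in either direction. Of 13 capillary, tip and glomerular genes Esm1 alone passed, and Gpihbp1, the lipase anchor of capillaries, stood at 209.8 against 45.2 CPM in 10X and 97.2 against 48.6 in Drop-seq but 104 against 134 in Fluidigm (0.76 ± 0.67, adjusted p = 0.908, edgeR). Of 20 VEGF, TIE, BMP and TGF-beta pathway genes Nrp1 alone passed. Within that list the VEGF receptor Flt1 stood at 227 against 163 CPM in Drop-seq, 238 against 108 in 10X and 45.8 against 75 in Fluidigm, the angiopoietin receptor Tek at 69.4 against 122 CPM in Drop-seq, 60.4 against 118 in 10X and 146 against 165 in Fluidigm, and neither passed (edgeR adjusted p = 0.908 and 0.389). Of 23 matrix and basement membrane genes Col15a1 was higher, at 120.4 against 34.7 CPM in Drop-seq, 160 against 82.3 in 10X and 75.8 against 29.6 in Fluidigm (1.27 ± 0.25, adjusted p = 0.00345, edgeR), and Bgn lower. Of 21 junction and adhesion genes the sialomucin gene Cd34 alone passed, at 236 against 188 CPM in Drop-seq, 621 against 321 in 10X and 396 against 278 in Fluidigm (0.64 ± 0.14, adjusted p = 0.0118, edgeR), whereas the junction cadherin Cdh5 had a fold change of 0.00 ± 0.18. None of 27 cell cycle genes passed in either direction, with a median of -0.01, and Top2a and Cdk1 stood at 0.13 ± 0.13 and 0.00 ± 0.16. None of 8 stress response genes passed.

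The 10X library holds most of the cells and was also read alone, with no test because it is 1 library. There 244 of 7005 genes with 20 or more counts were at least 2-fold higher in marked cells (3.48%) and 218 at least 2-fold lower (3.11%), 6.6% in all. Of 24 arterial genes 16 were 2-fold higher and none lower, with a median log2 ratio of 1.22 against -0.04 over all genes. These 16 held Notch4, Cxcl12, Epas1, Sema3g, Vegfc, Mecom and Alox12 beside genes already named. Aqp1, a water channel of vasa recta and arteriolar endothelium, stood at 57.2 against 1.61 CPM, Serpinf1, an inhibitor of vessel growth, at 53 against 3.23, and Hpgd, which inactivates prostaglandins, at 44.5 against 0, at least 9.2-fold higher. Hpgd was lower in marked Fluidigm cells, at 13.3 against 24.2 CPM, and Serpinf1 in marked Drop-seq cells, at 18.5 against 24.3 CPM. Without thinning the 10X log2 ratio was 1.90 for Serpinf1, from 3.49, and 2.69 for Hpgd, from 4.82. Haemoglobin Hba-a1 was at 578 against 19.4 CPM in 10X, but 525 of its 546 counts came from 1 cell, without which it stood at 22.3, and in Drop-seq it was at 245 against 878, where 180 of the 253 unmarked counts came from 1 cell, without which the unmarked level was 257.

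Grouping 10X cells by how many of the 4 genes they held showed that the arterial genes were not spread evenly over marked cells. After thinning, 155 cells held none, 137 held 1, 56 held 2 and 43 held 3 or 4, with median totals of 9496, 9867, 8573.5 and 7805 UMIs, so the cells with most arterial genes were not the deepest. Depp1 (8430408G22Rik) stood at 0, 21.9, 44.6 and 564 CPM in these 4 classes, Stmn2 at 1.61, 5.47, 17.9 and 494, and Cxcl12 at 32.3, 7.3, 4.46 and 407. Cxcl12 was below its unmarked level in cells with 1 or 2 genes, but that level rests on 20 counts in 9 cells. With cells holding markers of other types left out, 1 unmarked count of Cxcl12 stayed against 71 marked ones. For Depp1, Stmn2 and Cxcl12 the widest step was to the cells with 3 or 4 of the genes. Sema3g at 1.61, 3.65, 8.93 and 110.5, Jag1 at 1.61, 1.82, 4.46 and 81.4 and Fbln5, an elastic fibre protein, at 3.23, 1.82, 0 and 87.2 followed the same course. Jag1 and Fbln5 had only 16 counts each in marked 10X cells, and 8 of those of Fbln5 came from 1 cell. In Drop-seq Fbln5 had 0 counts in marked and 3 in unmarked cells. Vegfc at 9.68, 23.7, 13.4 and 209, Aqp1 at 1.61, 14.6, 13.4 and 250 and Serpinf1 at 3.23, 5.47, 17.9 and 250 also had their highest level with 3 or 4 genes.

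A second set of genes already differed in cells with 1 gene. Dll4 stood at 6.45, 49.3, 49.1 and 93 CPM across the 4 classes, Esm1 at 6.45, 69.3, 156 and 256, and Rgs2 at 22.6, 91.2, 71.4 and 209. In these 3 the step from none to 1 gene was at least 4-fold. Ptp4a3 at 161, 312, 839 and 1052, Nrp1 at 165, 274, 411 and 669 and Unc5b at 32.3, 65.7, 98.2 and 250 were higher in each class than in the one before. Igfbp3 at 88.7, 124, 353 and 413 and Efnb2 at 14.52, 25.5, 84.8 and 186 followed the same order, with their widest step between 1 and 2 genes, while Gpihbp1 was highest with 2 genes at 45.2, 133, 384 and 227.

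The 11 lower genes described above were all highest in the cells with none of the 4 genes, but did not all follow 1 order from there. Nr2f2 stood at 169, 89.4, 17.9 and 23.3 CPM with none, 1, 2 and 3 or 4 genes, Irx3 at 168, 108, 62.5 and 17.4, Gchfr at 597, 369, 295 and 128 and Cnrip1 at 98.4, 56.6, 31.2 and 5.81. Sdpr, at 123, 62, 35.7 and 116, was nearly as high with 3 or 4 genes as with none. Bgn, Gas6, Cldn11 and Mmp2 were lowest in cells with 2 genes, on 2 or fewer counts each. Car8 and Flrt2 were both at 0 in the cells with 3 or 4 genes, from 82.3 and 108 CPM with none, and 43 cells of 4000 UMIs with a count of 0 allow up to 17.4 CPM. Aplnr at 284, 327, 179 and 52.3 and Plvap at 602, 558, 482 and 244 differed little between none and 1 gene and were lower with 3 or 4. Stromal markers summed to 682, 117, 84.8 and 64.0 CPM over the classes, and their part in these differences was not tested.

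By list, cells with 1 gene differed from cells with none in 1 of 17 arterial genes 2-fold higher (Dll4) and 1 lower (Cxcl12), where 1.85% of 6106 genes were higher and 2.88% lower. The level of Cxcl12 in cells with none rests on 20 counts in 9 cells. Capillary and tip genes gave 4 of 10 higher, namely Kcne3, Ramp3, Esm1 and Gpihbp1. Between cells with 3 or 4 genes and cells with 1, 17 of 20 arterial genes were 2-fold higher and none lower, where 7.87% of 4611 genes were higher and 4.4% lower, and the median log2 ratio was 2.09 against 0.09 over all genes. Venous and lymphatic genes gave 4 of 7 lower, namely Nr2f2, Aplnr, Nrp2 and Ccl21a. Ccl21a rests on few cells, as its 249 counts in marked 10X cells came from 4 of 236 cells, 98 of them from 1. Cell cycle genes gave 1 of 24 higher and 3 lower, with a median of -0.49. These classes were cut from the genes that chose the cells, hold 1 library and were not tested, and marked cells with a single gene are called marked here and not arterial.

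**Figure D5:**
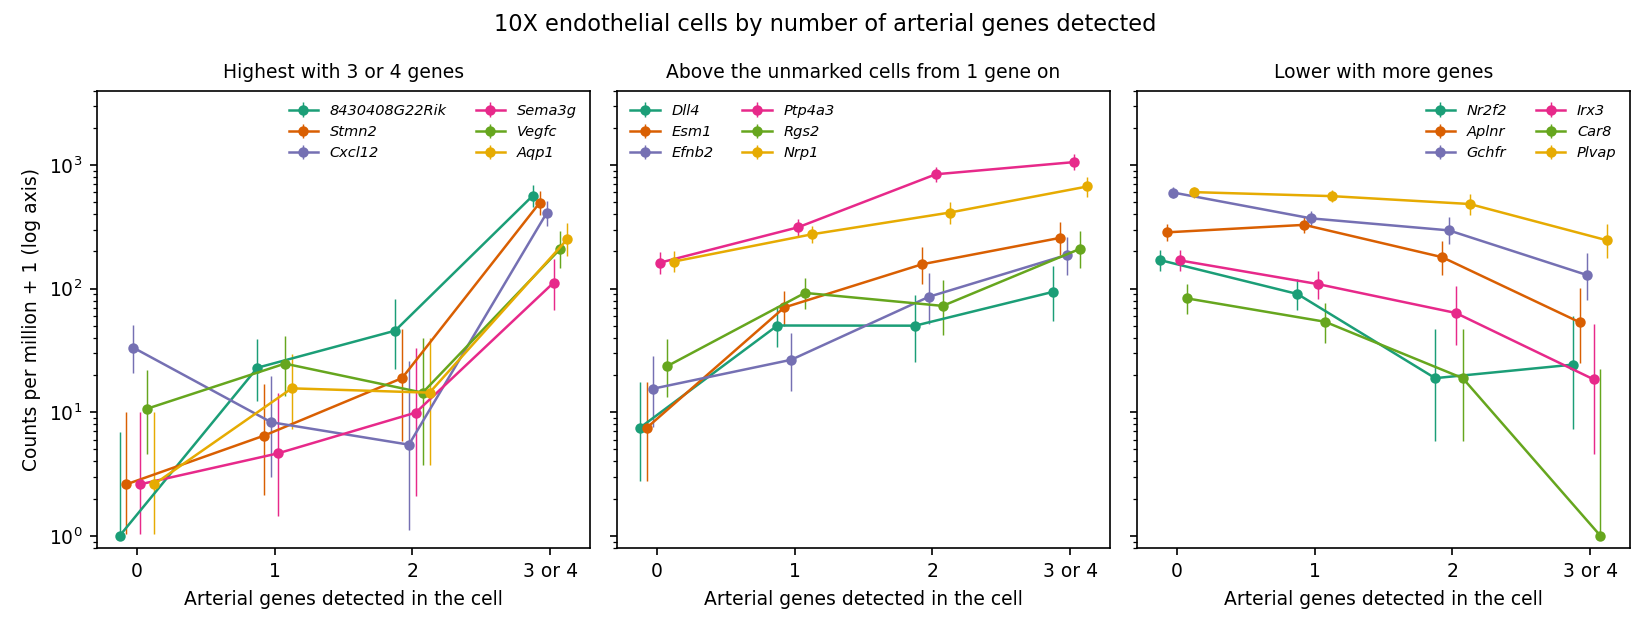
Level of 18 genes in 10X endothelial cells with 0, 1, 2 and 3 or 4 of the arterial genes detected, in thinned CPM with 1 added, on a log axis, with exact 95% Poisson intervals for counting error. The 6 genes on the left lie highest in the 43 cells with 3 or 4 genes, those in the middle are already above the unmarked cells with 1 gene, and those on the right are lower with 3 or 4 genes than with none.

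The 10X cells were also grouped by which of the 4 genes they held. The 91 thinned 10X cells with Gja4 or Gja5 and the 134 with Sox17 but neither connexin had median totals of 7951 and 10342.5 UMIs. This grouping overlaps the one by number. A cell with 3 or 4 of the genes must hold a connexin, so all 43 such cells are among the 91. The 134 cells can hold only Hey1 beside Sox17. Which genes a cell held and how many therefore cannot be told apart here. Depp1 (8430408G22Rik) stood at 294 CPM in the connexin cells against 20.5 in the Sox17 cells, Stmn2 at 245 against 5.6, and Cxcl12 at 195 against 5.6. Vegfc at 126 against 7.46, Sat1 at 530.2 against 56 and Dkk2, a secreted WNT regulator, at 85.2 against 3.73 had the same order. Dll4, by contrast, stood at 65.9 against 52.2 CPM, nearly level. Nr2f2 was at 33 against 72.8, Aplnr at 137 against 313, and Plvap at 354 against 589.5. Of 21 arterial genes 18 were 2-fold higher in the connexin cells and none lower, where 5.16% of 5248 genes were higher and 2.97% lower. Of 7 venous and lymphatic genes, Aplnr and Nr2f2 were 2-fold lower there and Ccl21a, which rests on few cells, was 2-fold higher.

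Drop-seq gave the same order for some of these genes on few cells, 18 with a connexin and 31 with Sox17 but no connexin. Sat1 stood at 403 against 137 CPM, Stmn2 at 41.7 against 0, Aplnr at 69.4 against 209.7 and Plvap at 222 against 395. Stmn2 had only 3 counts in all marked Drop-seq cells. Depp1 (8430408G22Rik), however, was level at 55.6 against 56.5, and Dll4 was lower in the connexin cells at 41.7 against 72.6.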

How the data were processed

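The authors deposited tables of whole-number counts per gene and cell for each platform, UMIs for Drop-seq and 10X and reads for Fluidigm; normalized tables were not used here. Bowtie2 2.2.7 (Drop-seq, Fluidigm), Cell Ranger 1.3.0 (10X) and build mm10 are named per the submitters' processing notes. How Drop-seq and Fluidigm reads were counted, and how the authors selected cells, was not stated. Fluidigm reads carry no molecular identifier, so they are not independent molecules, and intervals cover counting error only. Per the labels' protocols, all 3 samples carry the Drop-seq extraction text.

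The endothelial rule, the 4 marking genes and the gene lists were chosen with earlier results of these data known. Of 17864 symbols shared by the tables, 35 listed more than once and the 14 rule genes were left out, and 17815 were offered to the test. Each cell was thinned without replacement (seed 1), and counts were summed per library and status. Thinned cells numbered 236 and 155 in 10X, 54 and 72 in Drop-seq and 24 and 52 in Fluidigm, marked and unmarked, each with 4000 UMIs or 50000 reads less the rule genes. The robust quasi-likelihood F test of edgeR 4.0.16 (R 4.3.3), tested on simulated data, was run on the 6 sums with library as a block, after TMM scaling and filterByExpr. P-values are two-sided, adjusted by Benjamini-Hochberg over the 7335 genes tested, with a threshold of 0.05. As cells of 1 library share their source, the p-values weigh the difference against its spread over 3 libraries of different platforms. The test shrinks that spread towards values estimated over all genes tested, so a p-value does not rest on the gene's own spread alone.

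In 10X alone, a gene counted as 2-fold changed at a log2 ratio of 1 with 1 count added, among genes with 20 or more counts. Named were the rule genes, list members with enough counts, up to 15 genes in each direction past the threshold with the largest fold change and the same direction in every library, and up to 10 in each direction in 10X; 1 of the lower genes is not reported here. Scrublet in scanpy 1.11.5 (Python 3.11.15, expected rate 6%) called 16 doublets in 10X, of which 4 were marked and 7 unmarked endothelial cells, and 11 in Fluidigm, of which 1 was marked and 1 unmarked. Its 5 calls in Drop-seq were under 0.5% of cells and were taken as a failed run. Doublets and cells over 20% mitochondrial counts stayed in and were left out in an alternative. Alternatives covered the tool (DESeq2 1.42.0, limma 3.58.1), scaling, filter, block, depth, marking rule, cell rule and each library.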

Additional observations from a re-analysis of the deposited data

How the results depend on the processing

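The counts of genes called over the 3 libraries (42 higher, 12 lower) moved with the setting, and the cause was not tested except where cells or libraries were fewer. DESeq2 gave 14 higher and 1 lower, limma voom 93 and 36, no library block 0 and 0 (85 genes at an unadjusted p under 0.05), and the Fluidigm name groups HT and E14 as separate sums 3 and 0. Cells matched on total count gave 24 and 3, status read from thinned counts 7 and 0, cells with markers of other types left out 4 and 2, high mitochondrial share and doublets left out 23 and 5, and Fluidigm detection at 5 reads 72 and 24. The lower count alone moved with no filter (26), no thinning (7), thinning to 2500 UMIs or 25000 reads (5) and status without Hey1 (4). Leaving out 1 library gave 19 to 90 higher and 1 to 39 lower. DESeq2 size factors, marking by 2 or more genes, 4 or more endothelial genes and a second thinning draw, added after seeing the data, kept both counts within 1.5 times, and the second draw called 32 of the 54 genes again. Marked and unmarked cells of the same library were paired in the fit through the library block, and the fit without that block is the one given above; the labels give no replicate numbers.

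In 10X the counts (244 higher, 218 lower) moved to 388 higher with marking by 2 or more genes, to 331 lower with no thinning, to 138 lower with cells holding markers of other types left out, to 107 and 44 at a minimum of 50 counts, and to 696 and 2066 with no minimum. The marked share moved to 31.7% in Drop-seq, 47.6% in 10X and 3.95% in Fluidigm with status from thinned counts, and to 14.3%, 24.3% and 11.7% with 2 or more genes. Across the named genes, 252 fold changes over the 3 libraries kept their direction and call, 246 kept the direction only, and Fxyd2 turned to -0.64 with status from thinned counts. In 10X, leaving out cells with markers of other types turned Col1a1 to 0.17, Col1a2 to 2.06, Foxd1 to 0.64, Mfap4 to 1.64 and Hbb-bs to -0.10. Counts were few, at 12 against 5 for Col1a1, 7 against 0 for Col1a2 and 2 against 0 for Foxd1. Mfap4 had 5 against 0 and Hbb-bs 17 against 9. All but Mfap4 are on the lists by which cells were left out. Of the other ratios 163 kept and 32 moved. Depth limits the rest: genes under 20 counts in 10X, and the 18 connexin cells of Drop-seq, give no more than a direction.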

Other observations

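Cells marked by Hey1 alone, 5 in Drop-seq, 11 after thinning in 10X and 6 in Fluidigm, differed from the other marked cells. In Drop-seq their 8 endothelial genes summed to 250 CPM against 5639 in cells marked by Sox17 alone, their nephron epithelium markers to 3350 against 870.4, and their median total was 17338 against 6943 UMIs. In Fluidigm the endothelial genes summed to 1707 against 3598 CPM. In 10X they were closer, at 5295 against 6274 CPM, while stromal markers stood at 545 against 77.6 and mural markers at 227 against 4.31 CPM. Counts of cells are too few for more than these values, and with Hey1 left out of the marking 42 genes were higher and 4 lower over the 3 libraries.

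The Fluidigm cell names fall into a pair of groups, HT and E14, which the labels do not explain. Marked cells made up 16 of 41 endothelial cells in HT and 9 of 36 in E14.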
